A study of Homo sapiens with 8 samples.

Results

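NF-kappaB is a family of dimeric transcription factors, and the 10 genes described here are classical outputs of it: 3 inhibitors and feedback proteins (NFKBIA, TNFAIP3, BIRC3), 3 subunits of the factor itself (NFKB1, NFKB2, RELB) and 4 secreted or surface products of inflamed cells (LCN2, CXCL8, CXCL1, ICAM1). They were taken by gene symbol from the 20263 genes of the deposited table, and each symbol matched 1 gene. MHCC-97H, an established line of liver cancer cells, was kept for 24 hours in the solvent DMSO (4 libraries) or in lenvatinib, a kinase inhibitor directed at VEGF and FGF receptors. The drug was given at 40, 60, 80 and 100 µM, with 1 library for each dose, and total RNA was sequenced. Whether each DMSO library is a culture of its own is not said in the labels. The p-values below therefore rest on library-to-library spread, part of which can be technical, and differences between doses count as spread in the drug arm.

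In resting cells NF-kappaB dimers are held in the cytoplasm by I-kappaB proteins. Signals from TNF, interleukin-1 and Toll-like receptors activate the I-kappaB kinase, the inhibitor is degraded, and the dimers enter the nucleus and bind short kappaB sites near their targets. Among the first targets are the inhibitors themselves, which shut the signal down again. In a second branch the kinase NIK, encoded by MAP3K14, leads to processing of the NFKB2 product p100 to p52, which pairs with RELB. In liver cells the pathway drives acute-phase and chemokine genes.

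Library totals ran from 10181973 counts at 60 µM to 37384578 at 80 µM. A gene with 0 reads may still have a level of up to 0.0802 to 0.295 CPM (counts scaled to library size, here by library totals), from 3 counts and counting error only. In the TMM-scaled CPM used for levels below, 3 counts at 60 µM are 0.483 CPM. Libraries differed in how their levels followed the GC content of genes, measured as a GC slope (log2 deviation per 10 percentage points of GC). The slope was between -0.99 and 0.28 in DMSO, and 0.67, 1.82, -0.58 and -0.60 from 40 to 100 µM, and the 60 µM library stands apart in it and in depth. That library also held all reads of 6 marker genes: ALB (6 reads), APOA1 (10), TF (4), AFP (2), KRT19 (4) and LYZ (4). Of 5 epithelial markers the keratins KRT8 and KRT18 were high and made up nearly all of a sum of 3691 to 14385 CPM per library, while EPCAM, CDH1 and KRT19 were too low to test (125, 232 and 4 reads in all). Of 7 fibroblast and stellate markers COL1A1, PDGFRB, DCN and ACTA2 were tested and COL1A2 had no read, and the 7 summed to between 73.0 and 113 CPM per library. The labels give the tissue as liver, but the liver markers APOB and TTR had no read and 8 of 10 listed hepatocyte markers were too low to test. These 10 summed to between 11.5 and 16.0 CPM under DMSO and between 1.53 and 6.12 CPM under lenvatinib. FGB (2.36 to 8.38 against 0 to 0.680 CPM) and HNF4A (6.87 to 9.83 against 1.00 to 3.42 CPM) made up most of it, except at 60 µM. In that library FGB was at 0 and HNF4A at 1.29 CPM, beside APOA1 (1.61 CPM), SERPINA1, ALB (0.966 CPM) and TF (0.644 CPM). SERPINA1 went the other way at 60 µM, where it had its highest level, 1.61 CPM. The leukocyte genes PTPRC, CD3E and MS4A1 had 0 reads. The 8 immune markers summed to between 6.63 and 16.7 CPM under DMSO and between 3.07 and 11.8 CPM under lenvatinib. Most of that sum was CD68 (5.21 to 12.6 against 2.47 to 10.6 CPM). The part of these differences in the results below was not tested. In bulk RNA, fewer cells of a kind and less RNA per cell cannot be told apart.

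Promoters of 9 of the 10 genes were found in the RefSeq table for GRCh38.p14, in 12 windows of 250 bases before to 50 bases after a start site. The kappaB consensus, a motif with degenerate positions searched on both strands, lay in 8 of the 12 windows and in 7 of the 9 genes, against 11.3% of all 35116 windows. A palindromic core chosen after the windows had been seen, GGAANTTCC, which can overlap the consensus, lay in 5 of the 12, against 0.965% of all. The 4 sequences that follow begin with the inhibitor NFKBIA, then LCN2 and ICAM1, the 2 tested secreted or surface products. For comparison, the last is CXCL8, which averaged under 1 CPM. Each is the 250 bases before the start site, 5′ to 3′ along the gene's strand, with every match to either motif in capitals. They are chr14:35404750-35404999 (minus strand, NFKBIA), chr9:128149203-128149452 (plus strand, LCN2), chr19:10270870-10271119 (plus strand, ICAM1) and chr4:73740319-73740568 (plus strand, CXCL8).
NFKBIA: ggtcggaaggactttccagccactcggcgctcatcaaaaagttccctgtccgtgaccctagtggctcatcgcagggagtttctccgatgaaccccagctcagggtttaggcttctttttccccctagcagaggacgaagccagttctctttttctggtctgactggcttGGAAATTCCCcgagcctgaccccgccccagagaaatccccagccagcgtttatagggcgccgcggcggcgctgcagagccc
LCN2: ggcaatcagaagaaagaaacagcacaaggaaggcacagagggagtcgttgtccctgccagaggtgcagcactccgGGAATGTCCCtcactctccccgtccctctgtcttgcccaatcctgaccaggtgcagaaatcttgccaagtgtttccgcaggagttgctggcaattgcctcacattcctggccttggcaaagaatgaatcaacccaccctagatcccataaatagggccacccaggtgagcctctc
ICAM1: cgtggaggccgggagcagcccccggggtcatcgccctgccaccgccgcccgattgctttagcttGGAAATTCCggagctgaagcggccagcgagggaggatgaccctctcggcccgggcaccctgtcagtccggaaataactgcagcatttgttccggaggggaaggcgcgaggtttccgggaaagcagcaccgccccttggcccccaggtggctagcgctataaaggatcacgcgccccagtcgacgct
CXCL8: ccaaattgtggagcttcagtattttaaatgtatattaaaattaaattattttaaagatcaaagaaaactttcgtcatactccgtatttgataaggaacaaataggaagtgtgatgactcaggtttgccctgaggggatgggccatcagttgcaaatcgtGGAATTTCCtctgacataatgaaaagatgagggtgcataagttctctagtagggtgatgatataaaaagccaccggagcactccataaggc
The matched run began 81 bases before the start site in NFKBIA, 175 in LCN2, 186 in ICAM1 and 91 in CXCL8. NFKBIA holds both motifs in 1 run, LCN2 the consensus alone, and ICAM1 and CXCL8 the core alone. The RefSeq start sites of LCN2, ICAM1 and CXCL8 lie inside the genes as the deposited table bounds them. A match describes the letters of the window and is not evidence of binding.

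Per length, in the deposited FPKM, NFKB2 had the highest level in DMSO, at 62.8 ± 10.1 FPKM (SD, n = 4), and its libraries lay above those of every other member. ICAM1 (20.1 ± 0.894 FPKM) and NFKBIA (18.8 ± 4.90 FPKM) followed and did not differ beyond their spread, and neither did RELB (9.96 ± 2.65 FPKM) and NFKB1 (9.83 ± 2.82 FPKM). LCN2 (3.61 ± 0.911 FPKM) and TNFAIP3 (3.09 ± 1.61 FPKM) overlapped as well. BIRC3 stood at 0.394 ± 0.514 FPKM, CXCL8 at 0.0602 ± 0.0645 FPKM, and CXCL1 was listed at 0 in all 4 DMSO libraries. The subunits, NFKBIA and ICAM1 thus had the highest mean levels in DMSO, and the 2 chemokines were at or near 0 reads. A high level in DMSO did not hold in every library, and NFKB1 had 37 reads at 60 µM.

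After adjustment for GC slope the inhibitor NFKBIA was higher with lenvatinib, about 2.04 times the DMSO level, and the siderophore-binding protein LCN2 was lower, at 0.271 of it. The adhesion molecule ICAM1, at 0.525 of the DMSO level, missed the threshold, and the other 5 tested members were not called. The counts were compared with edgeR's quasi-likelihood test, 4 lenvatinib libraries against 4 DMSO libraries, over the 11827 genes that averaged 1 CPM or more, among them 8 of the 10 members. At a Benjamini-Hochberg adjusted p under 0.05 the test called 0 of 8 members and 0% of all genes (2 of 8 members and 4.42% of all genes at an unadjusted p under 0.05; limma-voom called 0). DESeq2 called 1 of 8 members, NFKBIA, against 0.795% of all genes (0.499% higher, 0.296% lower). With the GC slope of each library as a covariate, a fit known from earlier work on these data, edgeR called 2 of 8 members, against 3.26% of all genes. NFKBIA was called higher (1.48% of all genes were) and LCN2 lower (1.78% were). The median log2 fold change of the 8 members was -0.12 without the covariate and 0.25 with it, against -0.11 and -0.06 over all genes tested. Without the 60 µM library the GC-adjusted fit called 5 of 8 members (3 higher, 2 lower), against 23.3% of all genes (9.63% higher, 13.7% lower). With only 80 and 100 µM against DMSO it called 6 of 8 (4 higher, 2 lower), against 20.7% (9.67% higher, 11% lower). Without the 80 µM library it called 0 of 8 in edgeR, against 0% of all genes, with 1305 genes at an unadjusted p under 0.05.

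**Figure D1:**
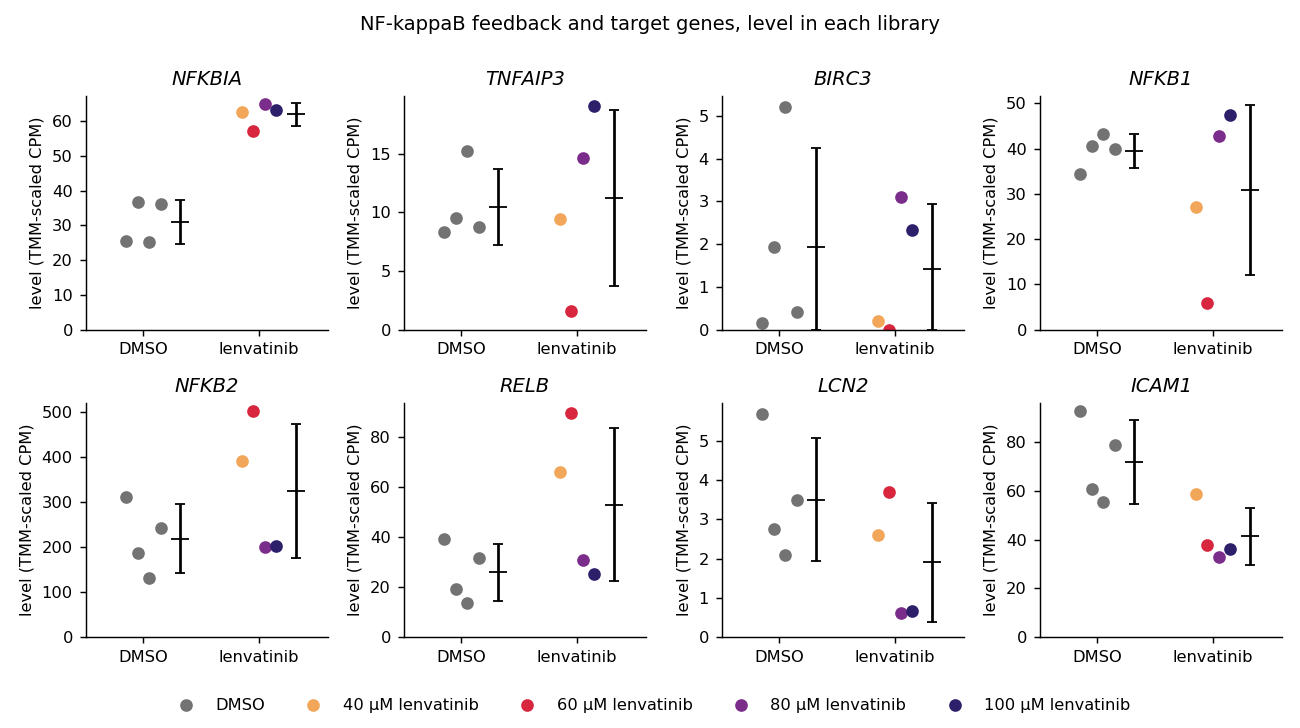
Level of the 8 tested members in each library, in TMM-scaled CPM on axes that start at 0; grey points are DMSO libraries, coloured points are single lenvatinib doses, and the black mark with bars is the mean ± SD of an arm (the lower bar is cut at 0). All 4 lenvatinib libraries lie above the DMSO libraries for NFKBIA, at 57.1 CPM or more against 36.7 CPM or less, and the 60 µM library is an extreme for TNFAIP3, NFKB1, NFKB2 and RELB.

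NFKBIA (ENSG00000100906, GRCh38 chromosome 14, 35401511 to 35404746, minus strand) encodes I-kappaB-alpha, the inhibitor that is resynthesised when NF-kappaB is active. Its TMM-scaled level was 25.6, 36.7, 25.3 and 36.0 CPM in DMSO libraries 1 to 4, against 62.6, 57.1, 64.7 and 63.3 CPM from 40 to 100 µM. The treated libraries were all above the untreated ones and lay close together across doses. Under TMM, arms without overlap were seen for 1 of 8 members, against 6.46% of all genes (3.08% above DMSO, 3.38% below). That share is for TMM only, and none is given for the other scalings below. The mean went from 30.9 ± 6.31 to 61.9 ± 3.32 CPM (SD, n = 4 each). On the log2 scale the change was 1.00 ± 0.25 without the covariate (SE; edgeR adjusted p = 0.874; unadjusted p = 0.00283) and 1.03 ± 0.17 with it (edgeR adjusted p = 0.0220). DESeq2 called it without the covariate (1.04 ± 0.22, DESeq2 adjusted p = 0.00101), and the GC-adjusted fit without 60 µM gave 1.06 (edgeR adjusted p = 0.00289). Over 17 alternatives to the GC-adjusted fit the log2 fold change stayed between 0.93 and 1.15. The call was lost without DMSO 1, 2 or 4 (edgeR adjusted p = 0.0944, 0.0544 and 0.0743) and without 80 or 100 µM (0.175 and 0.138), at log2 fold changes of 0.93, 1.11, 1.15, 1.02 and 1.04. The arms separated under TMM and under DESeq2 size factors but not by library totals, where 60 µM stood at 34.9 CPM, inside the DMSO range of 21.9 to 42.7 CPM. The other 3 doses stood at 48.7, 82.9 and 80.5 CPM there.

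TNFAIP3 (ENSG00000118503, chromosome 6, 137867188 to 137883312) encodes A20, a ubiquitin-editing enzyme that removes activating chains from the signalling complex. It was measured at 8.34, 9.50, 15.3 and 8.75 CPM in DMSO 1 to 4 and at 9.45, 1.61, 14.7 and 19.1 CPM from 40 to 100 µM. The arms overlapped, with 60 µM below and 100 µM above all DMSO libraries. The log2 fold change was 0.11 ± 0.65 without and 0.49 ± 0.27 with the covariate (edgeR adjusted p = 0.952 and 0.354). In the GC-adjusted fit it was called without the 60 µM library (0.57, edgeR adjusted p = 0.0223).

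BIRC3 (ENSG00000023445, chromosome 11, 102317450 to 102339403) encodes cIAP2, a ubiquitin ligase of the TNF receptor complex and an antagonist of cell death. It had 304 reads in DMSO and 256 with lenvatinib in all, spread very unevenly. The DMSO libraries held 0.145, 1.94, 5.21 and 0.417 CPM, and the lenvatinib libraries 0.214, 0, 3.09 and 2.33 CPM from 40 to 100 µM. Its range within DMSO alone was 36.0-fold, and its longest transcript had a GC content of 34.8%, the lowest of the tested members. The log2 fold change was -0.40 ± 1.31 without and 0.68 ± 0.35 with the covariate, and neither was called (edgeR adjusted p = 0.913 and 0.326).

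NFKB1 (ENSG00000109320, chromosome 4, 102501329 to 102617302) encodes p105, the precursor of the p50 subunit. Its level was 34.4, 40.5, 43.3 and 39.9 CPM in DMSO 1 to 4 and 27.2, 5.96, 42.8 and 47.4 CPM from 40 to 100 µM. The 40 and 60 µM libraries lay below all DMSO libraries and 100 µM above them. The log2 fold change was -0.35 ± 0.54 with all libraries (edgeR adjusted p = 0.874) and 0.01 without 60 µM. With the covariate it was -0.08 ± 0.26 (edgeR adjusted p = 0.908).

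NFKB2 (ENSG00000077150, chromosome 10, 102394110 to 102402529) and RELB (ENSG00000104856, chromosome 19, 45001430 to 45038198) encode the partners of the second branch. NFKB2 was at 312, 187, 132 and 243 CPM in DMSO 1 to 4 and at 392, 501, 200.4 and 202 CPM from 40 to 100 µM. RELB was at 39.1, 19.4, 13.6 and 31.6 CPM in the DMSO libraries and at 66.1, 89.8, 31.0 and 25.2 CPM under the drug. In both genes 40 and 60 µM lay above all DMSO libraries and 80 and 100 µM inside their range. The log2 fold change of NFKB2 was 0.57 ± 0.41 without and 0.10 ± 0.14 with the covariate (edgeR adjusted p = 0.874 and 0.755). RELB had 1.03 ± 0.51 without and 0.41 ± 0.18 with it (edgeR adjusted p = 0.874 and 0.246). The GC-adjusted value of RELB was called without the 60 µM library (0.49, edgeR adjusted p = 0.0156).

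**Figure D2:**
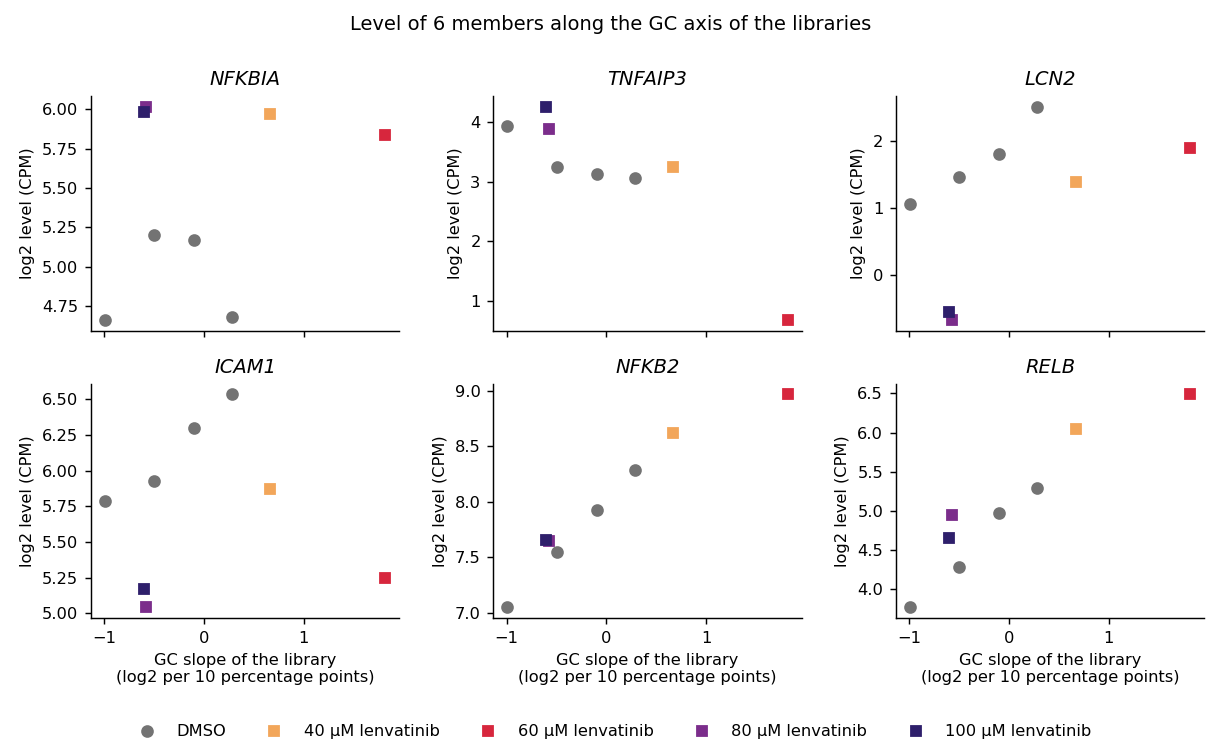
Log2 of the TMM-scaled CPM (vertical) against the GC slope of each library (horizontal) for 6 members; circles are DMSO libraries, squares lenvatinib libraries coloured by dose. NFKB2, RELB and LCN2 climb and TNFAIP3 descends along the axis through both arms. The libraries at 80 µM, 100 µM and DMSO 2 share a slope, between -0.60 and -0.50. Among these single libraries NFKBIA, TNFAIP3, NFKB2 and RELB are higher and LCN2 and ICAM1 lower with the drug.

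The plot of levels along the GC axis sets the members beside this property of the libraries. The GC term of the fit was called for 6 of 8 members, against 79.5% of all genes tested. It was positive for NFKB2 (0.65 ± 0.08 log2 per unit of slope), RELB (0.83 ± 0.11) and LCN2 (1.11 ± 0.17), and negative for TNFAIP3 (-1.04 ± 0.19), NFKB1 (-0.88 ± 0.19) and BIRC3 (-3.53 ± 0.34). For NFKBIA (-0.05 ± 0.10) and ICAM1 (0.24 ± 0.14) it was not called (edgeR adjusted p = 0.694 and 0.135). Among libraries of nearly equal slope, DMSO 2 (-0.50) can be set beside 80 µM (-0.58) and 100 µM (-0.60), as single libraries with no test. NFKBIA stood at 36.7 against 64.7 and 63.3 CPM there, LCN2 at 2.75 against 0.627 and 0.680 CPM, and ICAM1 at 60.7 against 33.0 and 36.1 CPM. TNFAIP3 stood at 9.50 against 14.7 and 19.1 CPM and RELB at 19.4 against 31.0 and 25.2 CPM. BIRC3 (1.94 against 3.09 and 2.33 CPM), NFKB1 (40.5 against 42.8 and 47.4 CPM) and NFKB2 (187 against 200.4 and 202 CPM) were also higher in both drug libraries.

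LCN2 (ENSG00000148346, chromosome 9, 128149071 to 128153455) encodes lipocalin-2, a secreted protein that binds iron-carrying siderophores and is induced in the acute phase. It had 157, 98, 87 and 117 reads in DMSO 1 to 4 and 61, 23, 30 and 30 reads from 40 to 100 µM, 459 against 144 in all. Scaled by TMM these were 5.69, 2.75, 2.09 and 3.48 CPM for DMSO, and 2.61, 3.70, 0.627 and 0.680 CPM for the 4 doses. The 80 and 100 µM libraries lay below every DMSO library, and 40 and 60 µM lay inside the DMSO range. The mean went from 3.50 ± 1.56 to 1.90 ± 1.51 CPM (SD, n = 4 each), and without the covariate the log2 fold change was -0.92 ± 0.70 (edgeR adjusted p = 0.874). In the GC-adjusted fit LCN2 fell by 1.88 on the log2 scale (SE 0.28, edgeR adjusted p = 0.0163). Without 60 µM it had -1.83 (edgeR adjusted p = 0.00145). The call was lost without DMSO 1, 2 or 4 (-1.82, -1.90 and -1.93; edgeR adjusted p = 0.0898, 0.0630 and 0.0744) and without 80 or 100 µM (-1.76 and -1.84; 0.151 and 0.136). Scaled by library totals only, all 4 lenvatinib libraries were below DMSO, at 0.803 to 2.26 CPM against 2.77 to 4.86 CPM. The share of all genes without overlap under that scaling is not given here.

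ICAM1 (ENSG00000090339, chromosome 19, 10270835 to 10286615) encodes the adhesion molecule that binds leukocyte integrins. The DMSO libraries held 92.7, 60.7, 55.2 and 78.6 CPM and the lenvatinib libraries 58.5, 38.0, 33.0 and 36.1 CPM from 40 to 100 µM. From 60 µM on, the drug libraries lay below all DMSO libraries, and 40 µM lay above the lowest of them. The mean went from 71.8 ± 17.1 to 41.4 ± 11.6 CPM (SD, n = 4 each). The log2 fold change was -0.79 ± 0.29 without the covariate (edgeR adjusted p = 0.874; unadjusted p = 0.0249) and -0.93 ± 0.22 with it (edgeR adjusted p = 0.0570), so ICAM1 was not called in either fit. It passed in 10 of 17 alternatives to the GC-adjusted fit. Among them were limma-voom (-0.93, adjusted p = 0.0236), which called 7.02% of all genes, and the fit without 60 µM (-0.85, edgeR adjusted p = 4.52e-04), which called 23.3%. Of the 8 fits that left out 1 library, ICAM1 passed in only 2. It missed the threshold without DMSO 1, 2, 3 or 4 (edgeR adjusted p = 0.212, 0.125, 0.0748 and 0.215), and the highest edgeR adjusted p of the 8 fits was 0.310. The arms did not overlap by library totals, at 70.6 to 79.3 CPM in DMSO and 23.2 to 45.9 CPM with lenvatinib. Nor did they with DESeq2 size factors, at 58.9 to 88.0 CPM against 33.5 to 52.7 CPM. The share of all genes without overlap under these scalings is not given here.

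CXCL8 (ENSG00000169429, chromosome 4, 73740506 to 73743716) is the neutrophil chemokine interleukin-8, and CXCL1 (ENSG00000163739, chromosome 4, 73869404 to 73871242) is its relative. Both averaged under 1 CPM and were left out of the fits above. CXCL8 had 4, 0, 2 and 11 reads in DMSO 1 to 4 and 0 reads at each of the 4 doses, or 17 reads against 0 in 128650407 and 112391925 counts. At these depths 1 of the DMSO libraries was itself at 0. A difference was tested only in fits without the filter at 1 CPM, and it was not called. CXCL8 there had log2 fold changes of -5.11 without and -5.51 with the covariate (edgeR adjusted p = 0.845 and 0.237). CXCL1, which has close paralogs in the same cluster, had 2 reads in all, both at 80 µM. Without the filter it had 2.26 and 2.46 (edgeR adjusted p = 0.845 and 0.499). No member's gene model overlapped another gene of the table.

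**Figure D3:**
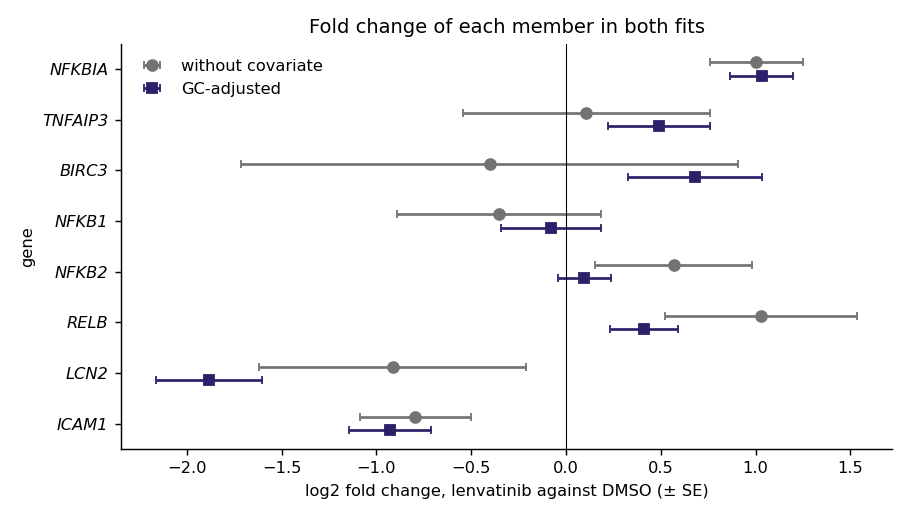
Log2 fold change of lenvatinib against DMSO (horizontal, ± SE) for each tested member (vertical), without the GC covariate (grey circles) and with it (dark squares). NFKBIA has nearly the same value in both, 1.00 and 1.03, while LCN2 goes from -0.92 to -1.88 and RELB from 1.03 to 0.41.

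By role, the 3 inhibitor and feedback genes had GC-adjusted log2 fold changes of 0.49 to 1.03, with 1 called higher (1.48% of all genes were). Without the covariate BIRC3 was negative (-0.40) and TNFAIP3 near 0 (0.11). The 3 subunits lay between -0.08 and 0.41 with the covariate, with 0 called. The 2 tested secreted or surface products had -1.88 and -0.93, with 1 called lower (1.78% of all genes were). These counts are a description of genes picked with earlier results known. Within the drug arm no member had a dose slope that passed (0 of 8 members, against 0% of all genes; at an unadjusted p under 0.05, 0 of 8 against 7.4%). NFKBIA had a slope of 0.02 ± 0.16 log2 per 20 µM, with 62.6 CPM at the lowest dose and 63.3 CPM at the highest. LCN2 had the steepest negative slope, -0.86 ± 0.39 (edgeR adjusted p = 0.295), and -0.26 with the GC covariate. The 40 and 60 µM libraries have higher GC slopes than the 80 and 100 µM libraries, and with 1 library per dose the effects of dose and library cannot be told apart.

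The rest of the pathway was read from 6 lists with 113 genes, of which 80 were tested. Without the covariate 0 of the 80 were called in edgeR. In the GC-adjusted fit 1 was called higher and 2 lower, against the 1.48% and 1.78% given above, and the median log2 fold change was 0.05, against -0.06 over all genes. Without 60 µM the fit called 25 of 80 (13 higher, 12 lower), against 23.3% of all genes, and without 80 µM it called 0 of 79.

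Of 9 tested receptors, 1 was called. TNFRSF12A, the receptor of the cytokine TWEAK, was at 321, 203, 136 and 242 CPM in DMSO 1 to 4 and at 215, 312, 81.0 and 86.1 CPM from 40 to 100 µM. The arms overlapped, with 80 and 100 µM below all DMSO libraries. It fell by 1.09 on the log2 scale in the GC-adjusted fit (SE 0.13, edgeR adjusted p = 0.00887) and had -0.38 ± 0.50 without the covariate. TNFRSF1B, the second TNF receptor, was above DMSO in all 4 drug libraries (10.4 to 18.2 against 5.57 to 8.63 CPM) with a GC-adjusted log2 fold change of 0.71 ± 0.19 (edgeR adjusted p = 0.0775). TNFRSF1A, the main TNF receptor, and LTBR, the lymphotoxin receptor that feeds the second branch, had 0.16 ± 0.16 and 0.18 ± 0.12.

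Of 25 adaptors, ubiquitin ligases and kinases 0 were called. TRAF1, an adaptor and itself a target, lay above DMSO at every dose (1.82 to 2.58 against 1.16 to 1.37 CPM; GC-adjusted log2 fold change 0.80 ± 0.25, edgeR adjusted p = 0.129). MAP3K14, the kinase NIK, had 0.54 ± 0.15 (edgeR adjusted p = 0.0872), and RBCK1, a part of the linear ubiquitin ligase, 0.33 ± 0.10 after 1.24 ± 0.57 without the covariate. None of the 7 tested subunits and I-kappaB proteins was called either. RELA, the main activating subunit, had 0.75 ± 0.54 without and -0.05 ± 0.10 with the covariate, the inhibitor NFKBIE 0.98 ± 0.48 and 0.44 ± 0.15, and NFKBIL1 1.10 ± 0.60 and 0.12 ± 0.10. Among 10 negative regulators 0 were called, and the GC-adjusted values of OTULIN, a deubiquitinase for linear chains, NLRC5 and COMMD1 were -0.04, 0.20 and -0.02.

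Many NF-kappaB cytokine genes had few or no reads in these cells. Of 26 chemokines, cytokines and growth factors 8 were tested and another 8 had no read in any library. CSF1, the macrophage growth factor, was at 17.1, 11.5, 11.7 and 13.1 CPM in DMSO 1 to 4 and 33.7, 68.4, 30.2 and 24.8 CPM from 40 to 100 µM, above DMSO at every dose. It rose by 1.14 ± 0.16 on the log2 scale in the GC-adjusted fit (edgeR adjusted p = 0.0155; 1.56 ± 0.39 and 0.874 without the covariate). IL18, an interleukin-1 relative, was below DMSO in all drug libraries (7.57 to 16.7 against 17.7 to 27.3 CPM; -0.70 ± 0.17, edgeR adjusted p = 0.0668). CCL2, the monocyte chemokine, had 1.78 ± 0.79 without and 0.81 ± 0.55 with the covariate, and 10.1 CPM at 60 µM against at most 1.76 CPM in the other drug libraries. Without 60 µM its log2 fold changes were 0.64 and 0.65.

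Of 21 other targets 1 was called. IER3, an early response gene that modulates survival, was at 25.8, 21.9, 18.4 and 26.0 CPM in DMSO 1 to 4 and at 18.99, 47.5, 9.20 and 10.9 CPM from 40 to 100 µM, with overlapping arms. Its GC-adjusted log2 fold change was -0.94 ± 0.19 (edgeR adjusted p = 0.0397), against -0.10 ± 0.53 without the covariate. SOD2, the mitochondrial superoxide dismutase, was below DMSO at every dose (14.3 to 18.6 against 22.0 to 26.0 CPM; -0.44 ± 0.14, edgeR adjusted p = 0.128). IRF1 and TAPBP, genes of the interferon response and of antigen presentation, had 0.54 ± 0.14 and 0.59 ± 0.14 (edgeR adjusted p = 0.0717 and 0.0636). The 3 calls in these lists were lost without DMSO 1 or 4 or without 80 or 100 µM, where adjusted p-values for TNFRSF12A were 0.0576, 0.0613, 0.0984 and 0.0964, for CSF1 0.0716, 0.0831, 0.141 and 0.109, and for IER3 0.0780, 0.156, 0.277 and 0.206 in edgeR. Without DMSO 2 CSF1 and IER3 were lost too (edgeR adjusted p = 0.0630 and 0.115), and without DMSO 3 IER3 (0.0613). IER3 also missed the threshold with DESeq2 size factors and by library totals (edgeR adjusted p = 0.0510 and 0.0567).

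**Figure D4:**
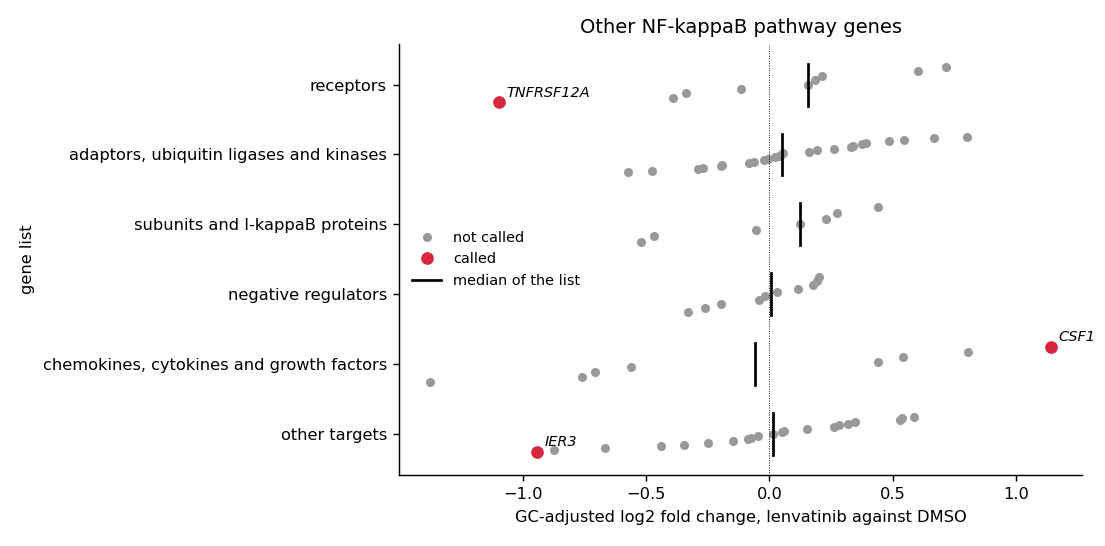
GC-adjusted log2 fold change of lenvatinib against DMSO (horizontal) for the 80 tested pathway genes by list (vertical); each point is a gene, red points are called, and the black bar is the median of a list. The 3 called genes, CSF1, TNFRSF12A and IER3, lie at 1.14, -1.09 and -0.94, and the medians of the 6 lists lie between -0.06 and 0.16.

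The genes whose pattern over the 8 libraries was most like that of NFKBIA were TNFRSF25, TRIM16L and GEMIN8. Likeness was the root mean square difference of log2 CPM after centring each gene on its mean, 0.174, 0.174 and 0.187. The median over all other tested genes was 0.907. TNFRSF25 was low, with a mean of 0.775 CPM in DMSO and 1.44 CPM with lenvatinib. For TNFAIP3 the nearest were CDON, SLC25A16 and ZNF589, at 0.105, 0.184 and 0.199, against a median of 1.16 over all other tested genes. These genes were picked as the nearest of all tested genes, so their nearness is a description.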

How the data were processed

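RNA sequencing of 8 libraries gave 1 table of 20263 genes with counts, TPM and FPKM per library, per the file headers. FastQC, HISAT2, bedtools, StringTie and the build GRCh38 are named in the submitters' processing notes, and neither versions nor annotation nor strand setting could be read from the sources used here. The deposited count columns hold whole numbers. The deposited TPM columns were not used, and the FPKM values of the authors served only to order genes by level.

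The test was edgeR 4.0.16 under R 4.3.3 (TMM, robust quasi-likelihood, 6 residual degrees of freedom, 5 with the GC slope), with limma 3.58.1 and DESeq2 1.42.0 as alternatives. Genes averaging at least 1 CPM hold 99.9% of all counts. A library's GC slope is the regression, over genes, of its log2 deviation from the 8-library mean on the GC content of the longest transcript (4 tested genes had none). Members, lists and fits were chosen with earlier results of these data known. Named besides the members are pathway genes called in either fit and, per list, the 3 with the smallest unadjusted p without the covariate. Alternatives were other scalings, tools, filters, covariates and dose terms, a block on the number in the titles, and leaving out libraries. A gene list is described by counts and medians, with no set test.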

Additional observations from a re-analysis of the deposited data

Results flagged for a closer look

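Dixon's ratio was examined in 62 groups of 4 libraries, from members, named pathway genes, library totals and GC slopes. The groups of CXCL8 and CXCL1 that held reads were counted but could not be flagged, for too few reads. Among the 62, 3 held a library far from the others, where chance flags about 1 group in 20. TNFAIP3 was at 15.3 CPM in DMSO 3, against 8.34 to 9.50 CPM in the other DMSO libraries, and that library has the lowest GC slope. CCL2 was at 10.1 CPM at 60 µM, against 1.58 to 1.76 CPM at the other doses. SOD2 was at 14.3 CPM at 60 µM, against 18.1 to 18.6 CPM.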

How the results depend on the processing

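Without the covariate 0 genes were called by edgeR under every alternative but the GC covariate itself (386), and 94 by DESeq2. The GC-adjusted count of 386 became 1015 with DESeq2 size factors, 674 by library totals (62.5% of calls higher, against 45.3%), 830 with limma-voom, 2038 with DESeq2, 2463 with 80 and 100 µM only, and 0 (without 80 µM) to 2770 (without 60 µM) when 1 library was left out. The 3 pathway calls became 11, 9, 10, 21 and 22 in the same order, 6 with a filter at 5 CPM, and 0 to 25 without 1 library. Genes with groups that do not overlap numbered 764, and 847 to 1249 without 1 library (1249 without DMSO 1). A smaller group separates more easily, so these counts cannot be set against the 764. Whether the numbers in the titles pair the libraries is not said in the labels. Deviations from arm means correlated at 0.63, -0.46, 0.84 and -0.61 between same-numbered libraries, and at 0.85 between DMSO 3 and 100 µM. With 1 library per dose and GC slopes that differ, these values cannot decide whether the libraries pair. With the replicate number as a block edgeR called 0 genes, and 232 with the GC slope; LCN2 then missed the threshold (-1.83, edgeR adjusted p = 0.0522), ICAM1 passed it (-0.88, 0.0199), and TNFAIP3 without the covariate had -0.22, NFKB1 and COMMD1 with it 0.020 and 0.051. No value that turned direction had been called in that fit. Without the covariate, 80 and 100 µM only gave 0.52 for BIRC3, 0.22 for NFKB1, -0.092 for NFKB2, -0.0022 for TNFRSF1A, -0.32 for RELA, -0.21 for NFKBIL1, 0.24 for OTULIN and -0.18 for COMMD1, and the GC covariate gave 0.68 for BIRC3, -0.054 for RELA and -0.018 for COMMD1. GC-adjusted values turned with 80 and 100 µM only for NFKB1 (0.17), RELA (0.024), OTULIN (0.079) and COMMD1 (0.061), by library totals for NFKB1 (0.037), RELA (0.065), OTULIN (0.077) and COMMD1 (0.097), and for COMMD1 with DESeq2 size factors (0.010) and DESeq2 (0.011). Leaving out 1 library gave ranges without the covariate of -0.28 to 0.48 for TNFAIP3, -1.09 to 0.80 for BIRC3, -0.64 to 0.0057 for NFKB1 and -0.82 to 0.16 for IER3. With it the ranges were -0.23 to 0.090 for NFKB1, -0.10 to 0.0028 for RELA, -0.089 to 0.0045 for OTULIN and -0.089 to 0.035 for COMMD1. The dose slope became -0.0100, -0.13, -0.57 and -0.11 for NFKBIA, TNFAIP3, BIRC3 and NFKB1 with the covariate. The median GC-adjusted change of all genes was 0.05 by library totals, against -0.06. The cause of these shifts was not tested. BIRC3, LCN2 and the chemokines had the fewest reads of the members, and the 60 µM library has the fewest counts.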
